A study of Mus musculus with 48 samples.

Results

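IGHV1-26 and IGHV1-53 are a pair of mouse heavy-chain variable genes, chosen because they are the V genes of the G_1H4, G_1E3 and G_1A9 antibodies that the study isolated. Their members here were all deposited sequences whose IGHV call was either gene. These were 2 of the 148 IGHV genes called in the 48 libraries, and no deposited sequence had a call naming more than 1 gene. All calls were to the *01 allele, with 374618 deposited sequences for IGHV1-26 and 216966 for IGHV1-53.

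The libraries hold B cell receptor (BCR) heavy-chain transcripts from the lacrimal gland (LG) and the spleen of 24 C57BL/6 (B6) mice. Feces were first redistributed among the cages for 7 days. The 10 NOD-FMT mice then drank water with ampicillin, vancomycin and metronidazole for 7 days, and were gavaged daily for 3 weeks, at 5 weeks of age, with fecal supernatant of 30 donors, male mice of the NOD.B10.H2b strain, which develops autoimmune dry eye disease, aged over 20 weeks. The 9 PBS-T mice went through the same antibiotics and gavage schedule with PBS. The 5 BCR control mice, labelled NC1, were untreated B6 mice, so they differ from the PBS-T mice in antibiotics as well as in gavage. Replicate numbers are shared between groups as numbers only.

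A V gene encodes most of the heavy-chain variable domain, including the first and second complementarity-determining regions. The third, HCDR3, is built when a V, a D and a J segment are joined, and it differs from one B cell clone to another. Naive B cells carry IgM and IgD with an unmutated V segment, whereas B cells that have responded to antigen may switch to IgA, IgG or IgE and acquire V mutations. In the lacrimal gland, plasma cells that make IgA for the tear film are the best known B-lineage population. IGHV1-26 and IGHV1-53 belong to the large IGHV1 (J558) family.

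Both genes lie on the minus strand of chromosome 12 in GRCm38. Ighv1-26 (ENSMUSG00000094546.1) spans chr12:114788372-114788805, with a leader exon of 46 bases and a second exon of 305 bases, chr12:114788372-114788676, which encodes the rest of the leader and the V segment. Ighv1-53 (ENSMUSG00000093894.1) spans chr12:115158403-115158835, with its second exon of 305 bases at chr12:115158403-115158707. The genes are 369.597 kb apart. Their germline V segments are shown because the mismatches described below are read against them. Capitals mark the bases at which the pair differ.
IGHV1-26: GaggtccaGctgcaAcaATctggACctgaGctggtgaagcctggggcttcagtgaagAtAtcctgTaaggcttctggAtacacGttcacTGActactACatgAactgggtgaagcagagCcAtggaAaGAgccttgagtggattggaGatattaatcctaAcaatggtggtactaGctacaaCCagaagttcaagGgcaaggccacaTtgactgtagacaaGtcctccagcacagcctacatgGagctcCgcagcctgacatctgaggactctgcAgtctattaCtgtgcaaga
IGHV1-53: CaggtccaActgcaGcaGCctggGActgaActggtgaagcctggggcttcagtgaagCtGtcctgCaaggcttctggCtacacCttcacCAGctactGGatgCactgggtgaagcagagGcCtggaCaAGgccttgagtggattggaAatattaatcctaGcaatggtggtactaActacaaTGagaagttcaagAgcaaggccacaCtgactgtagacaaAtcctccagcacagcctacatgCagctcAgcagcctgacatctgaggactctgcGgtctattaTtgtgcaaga

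Over 294 bases the segments differed at 36 positions, an identity of 87.8%, and 66 of 98 codons were the same. The libraries were amplified with a mix of 35 V-gene forward primers, and those matching each gene's start without a mismatch are shown because the first bases of a sequence come from the primer. In the deposited V alignments, 94.1% of the IGHV1-26 sequences began at base 23, just behind the first primer. Of the IGHV1-53 sequences, 80.2% began at base 20, just behind the second, and 15.4% at base 19, just behind a primer of 18 bases with 1 mismatch to the gene.
mnphf12 for IGHV1-26: gaggtccagctgcaacaatctg
mnphf1 for IGHV1-53: caggtccaactgcagcagc

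A count is 1 consensus sequence built from reads that share a molecular identifier. Any nucleotide sequence present in at least 3 mice within 1 tissue was removed, and a clonotype was a distinct combination of IGHV gene, IGHJ gene and HCDR3 amino acids within a mouse. The kept counts were 40105 to 264365 per LG library and 71859 to 2032338 per spleen library. The LG libraries held 560 to 17213 clonotypes (median 882.5) and the spleen libraries 23002 to 593820. Sequences in the LG were mostly IgA (median 88.7%) and those in the spleen mostly IgM or IgD (median 87.9%). The LG libraries with least IgA were those of PBS-T mouse 9, with 20.1% IgA and 52.3% IgM or IgD, and PBS-T mouse 2, with 44.2% IgA.

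Several LG libraries stood apart. That of PBS-T mouse 5 held 17213 clonotypes and lost 39.8% of its counts to the removal of shared sequences. Among the spleens that of PBS-T mouse 6 lost most, 66.6%. The LG libraries of NOD-FMT mice 7 and 5 lost 23.4% and 16.3%. The median loss was 1.06% in the LG and 8.24% in the spleen. The study describes removal at the same threshold but reports far smaller losses for all of these named libraries. Its losses over all sequences of the LG and of the spleen were also smaller than those found here. For the LG of BCR control mouse 2 it reports a larger loss than the 0.429% found here. The removal used here thus does not reproduce that of the study. The LG libraries of BCR control mice 2 and 3 had 68 clonotypes of the 2 genes in common, 45.3% of the 150 in mouse 2 and 37.6% of the 181 in mouse 3, and these clonotypes carried 99.1% of the counts of the 2 genes in mouse 3 and 14.4% in mouse 2. Over the 253 pairs of mice without PBS-T mouse 5 the median was 0 shared clonotypes, and the next highest pair had 14, while pairs with PBS-T mouse 5 shared up to 47. Differences of group means from the BCR control group are therefore given also without mice 2 and 3.

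IGHV1-26 was the most used V gene of the spleen, and IGHV1-53 the next by mean. IGHV1-26 made up 7.75% ± 0.812 of spleen clonotypes (SD, n = 24) and was first in 24 of 24 spleens. By counts it was first in 14 of 24. How far the primer mix set the order of the genes was not tested. IGHV1-53 made up 4.12% ± 0.685, was first or second in 13 of 24 spleens, and was never lower than place 5. IGHV1-64 followed with 3.80% ± 0.241 and IGHV1-55 with 3.52% ± 0.349. IGHV1-26 exceeded IGHV1-53 in 24 of 24 spleens, by 3.63 percentage points ± 1.165. IGHV1-53 exceeded IGHV1-64 in only 13 of 24, by 0.318 ± 0.599, a mean smaller than its SD between mice. Whether these neighbours differ was not tested.

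**Figure D1:**
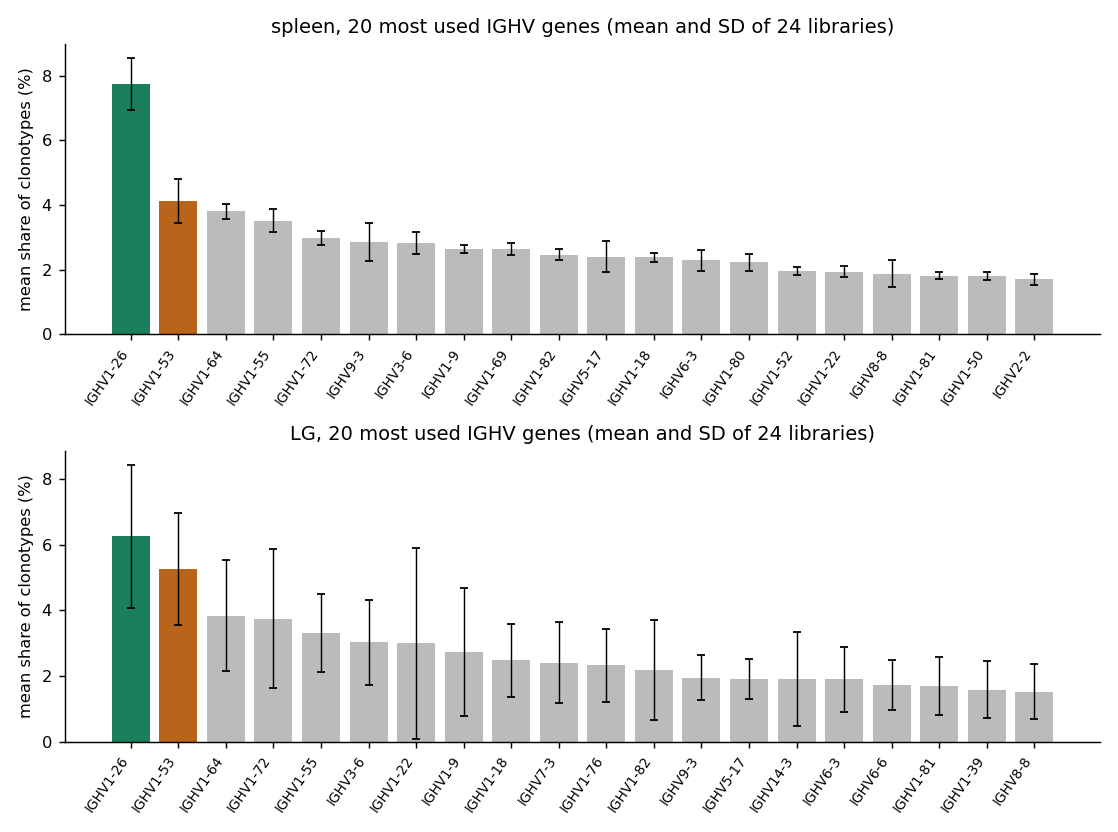
The 20 most used IGHV genes of the spleen (top) and the LG (bottom), as the mean share of a library's clonotypes in percent with the SD of 24 libraries. IGHV1-26 (green) and IGHV1-53 (orange) are the first and second bars in both tissues, at 7.75% and 4.12% in the spleen and 6.26% and 5.27% in the LG, and the LG whiskers are wider.

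In the LG the same genes led by mean, with a far wider spread. IGHV1-26 made up 6.26% ± 2.17 of LG clonotypes and IGHV1-53 5.27% ± 1.71 (SD, n = 24), before IGHV1-64 with 3.84% ± 1.69 and IGHV1-72 with 3.74% ± 2.12. IGHV1-26 was first in 10 libraries and IGHV1-53 in 6. IGHV1-26 exceeded IGHV1-53 in 15 of 24 LG libraries by a mean of 1.00 percentage point ± 2.13. IGHV1-53 exceeded IGHV1-64 in 17 of 24 by 1.42 ± 2.56. Both means were smaller than their SD between mice, and neither difference was tested. By counts the order of the pair turned, with a mean of 9.52% of LG counts for IGHV1-53 and 6.67% for IGHV1-26. The former includes 33.2% in PBS-T mouse 6 and 19.7 to 24.8% in BCR control mice 1 to 4. The removal of shared sequences had taken 21.3% of the IGHV1-26 LG counts and 9.73% of those of IGHV1-53. As deposited, the LG counts of the pair were 210576 and 220795. This order by counts was not tested. A library's own LG share was measured on few clonotypes, as in PBS-T mouse 2, where 57 of 560 clonotypes were IGHV1-26 (10.2%, Wilson 95% interval 7.94 to 12.96).

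Across the spleens the pair did not vary together (Pearson r = -0.21 over 24 libraries). The genes whose clonotype share was most like that of IGHV1-26 were IGHV1-50 (r = 0.53), IGHV9-4 (0.48) and IGHV1-9 (0.40). Those most like IGHV1-53 were IGHV1-55 (r = 0.84), IGHV1S26 (0.80) and IGHV1-54 (0.72). These correlations are descriptions over libraries that differ in depth and share 1 primer mix, and shares of a whole cannot vary independently.

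The first comparison asked whether microbiota transfer changed the use of either gene. In the spleen the IGHV1-26 share of clonotypes ran from 6.37% over a median of 8.19% to 8.86% in NOD-FMT mice, from 6.86% over 7.997% to 8.69% in PBS-T mice, and was 8.04%, 6.36%, 7.68%, 6.84% and 7.88% in BCR control mice 1 to 5. The 3 groups overlapped almost completely. The NOD-FMT and PBS-T means, 7.85% ± 0.967 and 7.85% ± 0.678, differed by 0.00537 percentage points (exact permutation test over mice, adjusted p = 0.989). IGHV1-53 ran from 3.30% over 3.75% to 5.45% in NOD-FMT mice and from 3.31% over 4.21% to 5.51% in PBS-T mice, and was 3.59%, 5.50%, 4.58%, 3.53% and 3.58% in the BCR control mice. Its group means differed by -0.216 percentage points (exact permutation test, adjusted p = 0.917). Of 113 IGHV genes tested in this way, 0.885% passed the threshold of 0.05.

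Spleen count shares gave no call either. The NOD-FMT minus PBS-T difference was -0.133 percentage points for IGHV1-26 and -0.244 for IGHV1-53 (exact permutation tests, adjusted p = 0.997 and 0.947), and 0.0% of the 113 genes passed, with 12 at an unadjusted p under the threshold. Against the BCR control group the spleen clonotype shares differed by 0.495 and -0.150 percentage points in NOD-FMT mice and by 0.490 and 0.0664 in PBS-T mice for IGHV1-26 and IGHV1-53 (exact permutation tests, adjusted p from 0.960 to 0.981). In both of these comparisons 0.0% of 113 genes passed, with 8 and 3 at an unadjusted p under the threshold. Without BCR control mice 2 and 3 the IGHV1-26 differences were 0.268 and 0.263 and those of IGHV1-53 were 0.441 and 0.657, the former with its sign turned, and none passed.

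**Figure D2:**
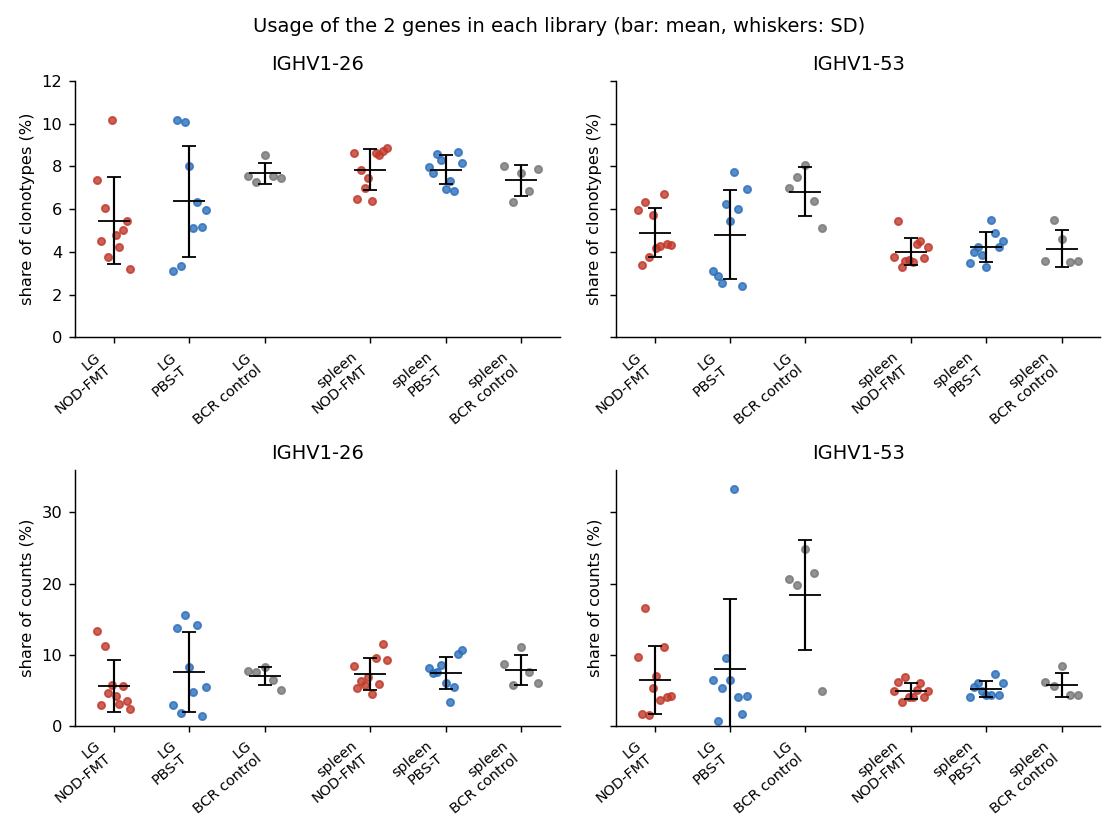
Share of clonotypes (top) and of counts (bottom) in percent that IGHV1-26 (left) and IGHV1-53 (right) made up in each library, by tissue and group, with 1 point per mouse, the mean as a bar and the SD as whiskers, of which 1 reaches below the axis start at 0. Spleen points of the 3 groups overlap, LG points spread widely, and 4 of the 5 BCR control LG libraries lie between 19.7% and 24.8% of counts for IGHV1-53.

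In the LG neither gene separated NOD-FMT from PBS-T mice. The IGHV1-26 share of clonotypes ran from 3.18% over 4.91% to 10.2% in NOD-FMT mice and from 3.11% over 5.94% to 10.2% in PBS-T mice. The IGHV1-53 share ran from 3.40% over 4.33% to 6.71% and from 2.39% over 5.47% to 7.73%. For IGHV1-26 the groups covered nearly the same range, and for IGHV1-53 the PBS-T range was wider on both sides. The differences of the means were -0.899 percentage points for IGHV1-26 (5.46% ± 2.04 against 6.36% ± 2.59) and 0.0921 for IGHV1-53 (4.90% ± 1.16 against 4.81% ± 2.08), with adjusted p = 0.694 and 0.952 by exact permutation tests, where 3.26% of 92 genes passed. The names of some LG libraries end in merged, a word that the sources used here do not explain. In the 6 NOD-FMT and 4 PBS-T libraries of this kind the IGHV1-26 difference had the other sign, 1.03, against -2.26 in the rest, and for IGHV1-53 it was 1.27 in the merged libraries and -1.06 in the rest. None of these passed.

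LG count shares, which weigh a clonotype by its transcripts, were far more uneven. In bulk RNA, more cells of a clone and more transcripts per cell cannot be told apart. IGHV1-53 took from 1.56% over a median of 4.77% to 16.6% of the counts in NOD-FMT mice and from 0.697% over 5.29% to 33.2% in PBS-T mice. It took 20.7%, 19.7%, 24.8%, 21.6% and 4.94% in BCR control mice 1 to 5. Of the 5 untreated mice, 4 lay above every NOD-FMT mouse and above 8 of the 9 PBS-T mice, while BCR control mouse 5 lay within the treated range. IGHV1-26 took from 2.40% over 4.41% to 13.3%, from 1.39% over 5.53% to 15.6%, and 7.76%, 7.60%, 8.34%, 6.41% and 5.01% in the same order, with all groups overlapping.

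NOD-FMT minus PBS-T differences in LG count share were -1.95 percentage points for IGHV1-26 and -1.46 for IGHV1-53 (exact permutation tests, adjusted p = 0.745 and 0.944), and 0.0% of 92 genes passed, with 9 at an unadjusted p under the threshold. For IGHV1-26 the difference was 4.25 in mice with merged LG libraries and -7.83 in the others, and for IGHV1-53 it was 1.70 without PBS-T mouse 6, none of which passed. The tests of LG count share against the BCR control group were not planned and were added to the planned ones. The NOD-FMT mean for IGHV1-53, 6.50% ± 4.76, was 11.9 percentage points below the BCR control mean of 18.4% ± 7.74 (exact permutation test, p = 0.00366). Adjusted over the 92 genes this did not pass (adjusted p = 0.168), 0.0% of genes passed, and 8 had an unadjusted p under the threshold. Without BCR control mouse 5 the difference was 15.2 percentage points in the same direction and passed (exact permutation test, adjusted p = 0.0460). Without mice 2 and 3 it was -9.24, with an adjusted p of 0.506 by the exact permutation test, and with all sequences found in 2 or more mice removed it was -6.87, with an adjusted p of 0.666. The PBS-T mean was 10.4 percentage points below the BCR control mean (exact permutation test, adjusted p = 0.797, 0.0% of genes passing and 5 at an unadjusted p under the threshold). Without mice 2 and 3 the PBS-T difference was -7.78, and with all sequences found in 2 or more mice removed it was -4.75. For IGHV1-26 the treated minus BCR control differences were -1.36 and 0.582 percentage points, and -0.733 and 1.21 without mice 2 and 3, none of which passed.

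LG clonotype shares against the BCR control group were lower in both treated groups for both genes, without a call. The BCR control shares were 7.55%, 7.29%, 8.54%, 7.55% and 7.46% for IGHV1-26 and 7.01%, 7.49%, 8.08%, 6.39% and 5.12% for IGHV1-53. NOD-FMT mice were 2.21 percentage points lower for IGHV1-26 (exact permutation test, p = 0.0366, adjusted p = 0.262), at place 2 from the lowest of 92 genes, and 1.92 lower for IGHV1-53 (exact permutation test, p = 0.0113, adjusted p = 0.130), at place 3, where 5.43% of genes passed. These places are by percentage points, in which the most used genes have most room to move. The 2 differences passed when 1 mouse was left out, NOD-FMT mouse 5 for IGHV1-26 (-2.74, exact permutation test, adjusted p = 0.0368) and BCR control mouse 5 for IGHV1-53 (-2.34, adjusted p = 0.0306). That of IGHV1-26 also passed when HCDR3s at 1 residue from each other were joined (-2.75, exact permutation test, adjusted p = 0.0102). That of IGHV1-53 did not, with joined means of 4.35% in NOD-FMT and 5.34% in BCR control mice, and among clonotypes with at least 2 counts it was -0.961, also without a call. Without BCR control mice 2 and 3 they were -2.06 and -1.27 (exact permutation tests, adjusted p = 0.643 for both). PBS-T mice were 1.32 and 2.01 percentage points lower (exact permutation tests, adjusted p = 0.714 and 0.590), with 0.0% of genes passing and 6 at an unadjusted p under the threshold. Without mice 2 and 3 these differences were -1.16 and -1.36, and with HCDR3s joined that of IGHV1-53 was -0.782.

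The LG and spleen of the same mice were compared next. Counted as all clonotypes, IGHV1-26 made up less of the LG than of the spleen and IGHV1-53 made up more. IGHV1-26 was 1.48 percentage points lower in the LG ± 2.44 (SD of the difference), lower in 17 of 24 mice, the largest fall of the 88 genes tested (sign-flip permutation test, adjusted p = 0.0217). IGHV1-53 was 1.15 percentage points higher ± 1.68, higher in 18 of 24 mice, the largest rise (sign-flip permutation test, adjusted p = 0.0137). This rise was 0.516 with joined LG HCDR3s and 0.854 among sequences without a V mutation, and neither value passed (sign-flip permutation tests, adjusted p = 0.108 and 0.0839). Of the 88 genes 36.4% passed, 12 higher and 20 lower in the LG. The largest fall and rise are by percentage points, in which the most used genes have most room to move. Changes relative to a gene's own share were not ranked. By group the IGHV1-26 difference was -2.39 in NOD-FMT mice, -1.48 in PBS-T mice and 0.322 in BCR control mice (exact sign-flip permutation tests, p = 0.0117, 0.164 and 0.375). That of IGHV1-53 was 0.894, 0.586 and 2.66 (exact sign-flip permutation tests, p = 0.0723, 0.355 and 0.0625, the last being the smallest that 5 mice allow). Set between groups, the LG minus spleen differences of the 2 genes did not pass in any of the 3 pairs of groups (exact permutation tests, adjusted p from 0.217 to 0.867). Of the 88 genes 4.55% passed for NOD-FMT against PBS-T, 5.68% for NOD-FMT against BCR control and 0.0% for PBS-T against BCR control, the last with 5 at an unadjusted p under the threshold.

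The IGHV1-26 difference was -2.81 in the 11 merged LG libraries (sign-flip permutation test, adjusted p = 0.0191) and -0.365 in the others (adjusted p = 0.729 in the same permutation test). That of IGHV1-53 was 0.857 and 1.39 (sign-flip permutation tests, adjusted p = 0.236 and 0.0695). Without BCR control mice 2 and 3 the differences over all mice were -1.70 and 1.00, and both passed.

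The tissue differences also depended on how clonotypes were counted. With clonotypes of 2 or more counts, 48.9% of the LG and 14.1% of the spleen clonotypes, the IGHV1-53 share was 6.28% ± 0.792 in the spleen and 5.20% ± 1.83 in the LG, so that the difference turned to -1.08 with an LG excess in 6 of 24 mice (sign-flip permutation test, adjusted p = 0.0269). IGHV1-26 then differed by -0.203 (6.80% ± 0.967 against 6.59% ± 2.09, adjusted p = 0.741 in the same permutation test). With every library thinned to the lowest total of its tissue the differences were -1.14 and 0.602 (sign-flip permutation tests, adjusted p = 0.0619 and 0.152). The LG excess of IGHV1-53 was thus not found among clonotypes seen more than once. A spleen clonotype of IGHV1-53 had 3.78 counts ± 0.958 on average, against 2.91 ± 1.11 for IGHV1-26 and 2.99 ± 0.661 over all genes, while LG clonotypes had 133 ± 80.2, 95.4 ± 55.6 and 95.1 ± 40.2 (SD, n = 24).

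The LG counts of both genes were carried by few clonotypes. The leading clonotype held a median of 34.9% of the IGHV1-26 counts and 40.3% of the IGHV1-53 counts of a mouse, with ranges of 5.06 to 94.1% and 16.1 to 89.2%. It was an IGHV1-53 clonotype that led all genes in 6 of 24 LG libraries, those of NOD-FMT mouse 3, PBS-T mice 5 and 6 and BCR control mice 1, 3 and 4. An IGHV1-26 clonotype led none. These leaders were read after the removal of shared sequences, which took 21.3% of the IGHV1-26 and 9.73% of the IGHV1-53 LG counts. Leaders under other removals were not read. These leading HCDR3s are printed with their values because the count shares above turn on them.

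The IGHV1-53 clonotype with the highest share of a mouse's counts was AKRLYDY with IGHJ2 in PBS-T mouse 6, with 13051 counts, 23.5% of the library (Wilson 95% interval 23.1 to 23.9). It was found in no other mouse's LG. The corresponding IGHV1-26 clonotype was ARWGRYPGDY with IGHJ4 in PBS-T mouse 7, with 6756 counts, 13.4% of the library (13.1 to 13.7) and 94.1% of the gene's counts there. A single count of it was found in the LG of a NOD-FMT mouse. Both were 100% IgA in the LG and close to germline, with 0.284 and 0.0256 mismatches per count on average.

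**Figure D3:**
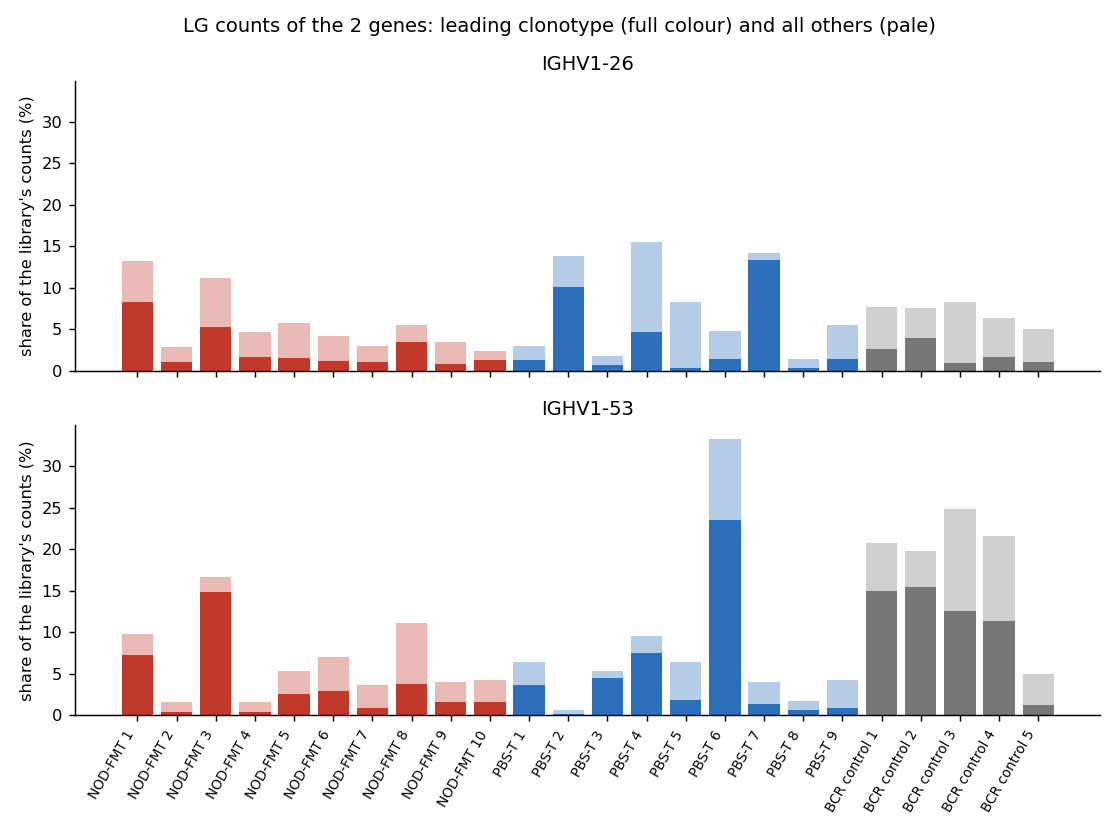
Share of each LG library's counts in percent taken by IGHV1-26 (top) and IGHV1-53 (bottom), by mouse and coloured by group (NOD-FMT red, PBS-T blue, BCR control grey), with the leading clonotype in full colour and all others pale. The IGHV1-53 bar of PBS-T mouse 6 reaches 33.2%, of which 1 clonotype makes 23.5 percentage points, and BCR control mice 1 to 4 reach 19.7 to 24.8%.

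The leading clonotype of the gene in each mouse was then taken out of both the gene's and the library's counts. The remaining IGHV1-53 clonotypes held 8.22% ± 4.41 of the remaining counts in BCR control mice (n = 5), 2.97% ± 1.85 in NOD-FMT mice (n = 10) and 3.45% ± 3.72 in PBS-T mice (n = 9). These shares have a smaller base than the count shares above. For IGHV1-26 these means were 5.08% ± 1.46, 3.17% ± 1.68 and 3.97% ± 3.60. The ranges of the 3 groups overlapped for both genes.

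The leading IGHV1-53 clonotypes of the untreated mice resembled each other. BCR control mouse 1 had ATNWDRYFDV with IGHJ1 (15.02% of counts, 14.8 to 15.3), mouse 4 ARNWDRYFDV with IGHJ1 (11.3%, 11.1 to 11.6), and mouse 3 ARNWNWYFDY with IGHJ2 (12.5%, 12.3 to 12.8), all with asparagine and tryptophan as residues 3 and 4. Mouse 2 led with ARRGWLRLYAMDY with IGHJ4 (15.4%, 15.2 to 15.7) and mouse 5 with ARRSYYGFAMDY with IGHJ4 (1.29%, 1.21 to 1.37). The shared pair of residues was noticed after these values were seen, so its frequency is given as a description with no test.

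HCDR3s with asparagine and tryptophan at residues 3 and 4 made up 87.8% (Wilson 95% interval 87.3 to 88.3), 7.91% (7.45 to 8.39), 50.5% (49.8 to 51.3) and 59.0% (58.2 to 59.9) of the IGHV1-53 LG counts of BCR control mice 1 to 4. These shares include the leading clonotypes from which the residues were read. Those alone held 72.5%, 50.4% and 52.6% of the gene's LG counts in mice 1, 3 and 4, so the shares largely restate them. Mouse 5 had 0 of 3724 counts, a 0 that is compatible with a share up to 0.0806%. In the 19 treated mice the highest LG share was 1.49%, in PBS-T mouse 5, and the median of both treated groups was 0. These 4 mice shared LG clonotypes, so that their shares are not independent. Besides the 68 common to mice 2 and 3, mice 1 and 4 had 13 clonotypes of the 2 genes in common, with 11.1% of the counts of the 2 genes in mouse 1 and 43.1% in mouse 4. Mice 2 and 4 had 6 in common, with 56.5% of these counts in mouse 2 and 0.113% in mouse 4.

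In IGHV1-26 such HCDR3s made at most 0.349% of the gene's LG counts in a mouse. In other IGHV genes they made a median of 0.108% of those genes' LG counts in BCR control mice, with 7.92% in the highest. Of spleen clonotypes they were a small share in each group, with group medians of 0.474 to 0.537% for IGHV1-53, 0.520 to 0.558% for IGHV1-26 and 0.491 to 0.526% for other genes. By counts the IGHV1-53 spleen shares of BCR control mice 1 and 4 stood out, at 4.08% and 4.28% of the gene's counts, against at most 1.42% in a treated mouse. The highest spleen count share over the other IGHV genes was 10.8%, in NOD-FMT mouse 8.

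LG clonotypes were looked up in the spleens, here with identical HCDR3 nucleotides. A median of 29.6% of a mouse's IGHV1-26 LG clonotypes and 32.2% of its IGHV1-53 LG clonotypes occurred in its own spleen, against a median of 0 in the spleens of other mice. The own spleen held more of them than any other spleen in 23 of 24 mice for IGHV1-26 and in 22 of 24 for IGHV1-53. In BCR control mouse 2 another spleen held more of its LG clonotypes than its own, 31.3% against 16.9% for IGHV1-26 and 19.6% against 11.96% for IGHV1-53. In PBS-T mouse 5 the own spleen held only 1.71% and 0.779%. The leading LG clonotype was found in the own spleen in 23 of 24 mice for IGHV1-26 and in 20 of 24 for IGHV1-53. No share over the other IGHV genes was set beside these values, so they are not read as particular to this pair.

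Most clonotypes of either gene were private to a mouse after the removal of sequences present in at least 3 mice. That removal itself lowers the sharing that can be seen between mice. It took 7.22% of the spleen counts and 21.3% of the LG counts of IGHV1-26. For IGHV1-53 it took 6.53% and 9.73%. The spleens held 237995 distinct IGHV1-26 clonotypes, 91.1% of them in 1 mouse, and 117550 distinct IGHV1-53 clonotypes, 91.9% in 1 mouse, against 94.2% and 94.0% for the other genes. Those held by most mice had 5 to 13 residues. For IGHV1-26 these were ARGAY with IGHJ3, in 24 of 24 spleens with 1 to 26 counts, ARWGDFDY with IGHJ2 in 22, and ARGFAY with IGHJ3 in 20. For IGHV1-53 they were ARYYYGSSYAMDY with IGHJ4, in 23 spleens with 1 to 21 counts, and ARGDY and ARQLRLDY with IGHJ2 in 21 each. Each was found in all 3 groups.

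In the LG 93.9% of 2571 distinct IGHV1-26 clonotypes and 94.7% of 2005 IGHV1-53 clonotypes were in 1 mouse, against 94.0% and 93.9% for the other genes. The most shared were ASNYDYHWYFDV with IGHJ1 in 7 mice, and ASWDEGGFDY and TKWDEGGFDY with IGHJ2 in 6 each, for IGHV1-26. For IGHV1-53 they were AVDLLWLRRGSFDY with IGHJ2 in 9 mice, ARDWDVFAY with IGHJ3 in 7 and ASGSVNYFDY with IGHJ2 in 5. Nearly all counts of each came from 1 library, as with AVDLLWLRRGSFDY, where 3898 of 3942 counts were in PBS-T mouse 5 and the median over the 9 mice was 5 counts. Of the 9 mice 5 were BCR control, 3 PBS-T and 1 NOD-FMT. All 6 of these clonotypes were most abundant in PBS-T mouse 5 and had 0 counts in its spleen, and the lowest value elsewhere was 1 count. The part of that library in the sharing was not tested.

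The J gene joined to each V gene was compared with that of all other IGHV genes in the same spleens, as the share of the gene's clonotypes. IGHV1-53 was joined to IGHJ2 in 37.9% ± 1.19 of clonotypes against 34.0% ± 0.925 for other genes, to IGHJ3 in 26.01% ± 1.18 against 24.1% ± 0.656, to IGHJ4 in 22.4% ± 0.940 against 26.6% ± 1.23, and to IGHJ1 in 13.7% ± 0.718 against 15.3% ± 0.431 (SD, n = 24). IGHJ2 was higher and IGHJ1 and IGHJ4 lower in 24 of 24 mice, and IGHJ3 higher in 23. By sign-flip permutation tests the differences of 3.90, 1.90, -4.21 and -1.60 percentage points had adjusted p = 1.75e-05, 1.69e-05, 1.75e-05 and 1.89e-05, from an unadjusted 1e-05 that is the smallest they can give. Such differences were common, with 77.6% of 98 genes passing for IGHJ1, 83.7% for IGHJ2, 83.7% for IGHJ3 and 84.7% for IGHJ4, and IGHV1-53 stood at place 20 of 98 for IGHJ2.

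IGHV1-26 lay closer to the other genes. Its shares were 34.9% ± 1.28 for IGHJ2, 25.0% ± 0.946 for IGHJ3, 25.2% ± 1.60 for IGHJ4 and 14.98% ± 0.754 for IGHJ1. The differences for IGHJ2, IGHJ3 and IGHJ4 were 0.767, 0.856 and -1.34 percentage points and passed (sign-flip permutation tests, adjusted p = 6.43e-05, 3.16e-05 and 1.75e-05, in 21, 22 and 24 of 24 mice). That of -0.283 for IGHJ1 did not (sign-flip permutation test, adjusted p = 0.0722), but it passed without the removal of shared sequences (-0.312, adjusted p = 0.0342 in the same permutation test) and without PBS-T mouse 6, 7, 8 or 9 (-0.318, -0.324, -0.332 and -0.345). With clonotypes of 2 or more counts the IGHJ1 and IGHJ3 differences turned to 0.535 and -0.253, and neither passed.

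In the LG the IGHJ shares of either gene varied with its few clonotypes. IGHJ2 made up 38.2% ± 13.3 of IGHV1-26 and 35.9% ± 12.8 of IGHV1-53 LG clonotypes, and IGHJ3 21.9% ± 11.003 and 26.01% ± 13.4, against SDs of at most 3.91 for the other genes together (n = 24). Mean HCDR3 length was 11.6 residues ± 0.746 and 11.5 ± 0.844. No direction was read from these shares.

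IGHV1-53 clonotypes of the spleen had shorter HCDR3s. Their mean length was 11.2 residues ± 0.169, against 11.5 ± 0.177 for other genes, 0.351 residues shorter in 24 of 24 mice (sign-flip permutation test, adjusted p = 1.42e-05, 84.7% of 98 genes passing). HCDR3s of up to 8 residues made up 17.3% ± 1.65 of its clonotypes against 13.4% ± 1.53, and those of 15 or more residues 10.8% ± 1.48 against 13.02% ± 1.47. The mean length of IGHV1-26 was 11.5 residues, with a difference from the other genes of 0.0104 (sign-flip permutation test, adjusted p = 0.293). The difference depended on which clonotypes were counted, and passed at 0.112 with clonotypes of 2 or more counts, at 0.0225 with all sequences found in 2 or more mice removed and, in the other direction, at -0.0220 without removal (sign-flip permutation tests, adjusted p = 0.000168, 0.0262 and 0.0398). Neither length differed between NOD-FMT and PBS-T spleens (-0.0244 residues for IGHV1-26 and 0.0350 for IGHV1-53, exact permutation tests, adjusted p = 0.977 for both), and 0.0% of 99 genes passed, with 3 at an unadjusted p under the threshold.

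**Figure D4:**
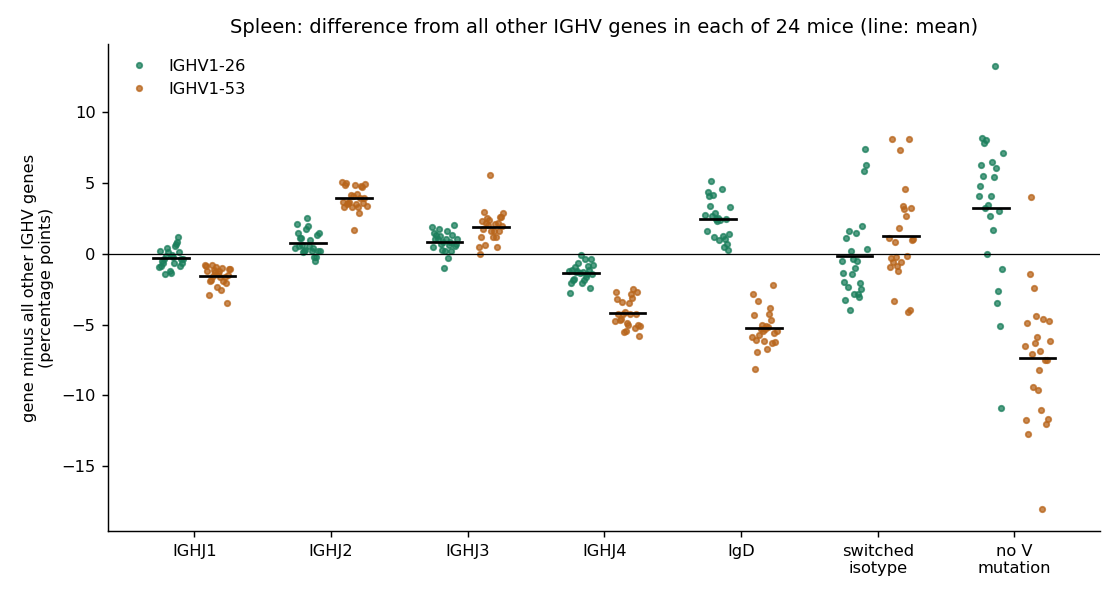
Difference between each gene and all other IGHV genes in the spleen, in percentage points, for the share of clonotypes with each IGHJ gene and the share of unique sequences that were IgD, class-switched or without a V mutation, with 1 point per mouse and the mean as a line. IGHV1-26 (green) lies above 0 and IGHV1-53 (orange) below 0 in all 24 mice for IgD, at means of 2.42 and -5.26, while the class-switched points fall on both sides.

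IgD, which naive B cells carry together with IgM, set the pair apart. Of the unique spleen sequences of IGHV1-26, 15.7% ± 4.02 were IgD against 13.3% ± 3.20 for other genes, and of those of IGHV1-53 8.48% ± 2.36 against 13.7% ± 3.27 (SD, n = 24). IGHV1-26 was higher and IGHV1-53 lower than the other genes in 24 of 24 mice, by 2.42 and -5.26 percentage points (sign-flip permutation tests, adjusted p = 2.33e-05 for both). With clonotypes of 2 or more counts the differences shrank to 1.13 and -0.461 and still passed. IgD was singled out after the isotype values were seen. Of 98 genes 82.7% passed, and IGHV1-53 stood at place 86 from the highest. The IgM share ran the other way, 71.4% ± 4.43 for IGHV1-26 and 77.4% ± 4.22 for IGHV1-53.

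Class-switched sequences (IgA, IgG or IgE) made up 12.8% ± 4.47 of the IGHV1-26 and 14.2% ± 4.05 of the IGHV1-53 spleen sequences. The differences from other genes, -0.168 and 1.24 percentage points, did not pass (sign-flip permutation tests, adjusted p = 0.817 and 0.148, 49.0% of 98 genes passing). By group the IGHV1-26 difference was -1.20 in NOD-FMT, -1.53 in PBS-T and 4.35 in BCR control mice (exact sign-flip permutation tests, p = 0.0645, 0.0273 and 0.0625), and whether these differ was not tested. With clonotypes of 2 or more counts the differences over all mice had the other sign and passed, at 4.87 and -5.98 (sign-flip permutation tests, adjusted p = 0.00845 and 0.000458). NOD-FMT and PBS-T spleens differed by 0.419 and -1.54 percentage points (exact permutation tests, adjusted p = 0.979 and 0.953), with 0.0% of 99 genes passing and 16 at an unadjusted p under the threshold. In the LG the median switched share was 96.6% for IGHV1-26 and 98.6% for IGHV1-53, and the median IgA share was 88.2% and 93.7%.

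On average over the 24 spleens, sequences without a V mutation were more frequent in IGHV1-26 and less frequent in IGHV1-53 than in the pool of all other genes. For IGHV1-26 this did not hold in the BCR control group. In the spleen they made up 71.6% ± 9.63 of IGHV1-26 and 61.6% ± 9.13 of IGHV1-53 sequences. The differences from other genes were 3.24 percentage points, in 18 of 24 mice, and -7.36, in 23 of 24 (sign-flip permutation tests, adjusted p = 0.00895 and 3.38e-05), where 71.4% of 98 genes passed. The median gene had a difference of 5.31, and IGHV1-26 stood at place 58 and IGHV1-53 at place 88 from the highest, so that IGHV1-26 was below most single genes. By group the IGHV1-26 difference was 5.13 in NOD-FMT, 3.71 in PBS-T and -1.40 in BCR control mice (exact sign-flip permutation tests, p = 0.00391, 0.0586 and 0.688). That of IGHV1-53 was -5.85, -8.45 and -8.43. Whether the groups differ in this was not tested. How far the differences rest on single recurrent mismatches, given below, was not tested either. With clonotypes of 2 or more counts the differences over all mice were -3.81 and -0.219, the first turned and past the threshold and the second not past it (sign-flip permutation tests, adjusted p = 0.0329 and 0.881). Weighting sequences by count gave -2.21 and -3.21, neither past the threshold. NOD-FMT minus PBS-T differences were 2.97 and 4.13 percentage points (exact permutation tests, adjusted p = 0.979 and 0.934), with 0.0% of 99 genes passing and 7 at an unadjusted p under the threshold.

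The same order held within IgM and IgD. Unmutated sequences made up 76.8% ± 9.62 of IGHV1-26 IgM and 67.3% ± 9.61 of IGHV1-53 IgM, and 88.7% ± 7.35 and 79.3% ± 13.2 of their IgD. In IgA they were far fewer, 16.8% ± 5.56 and 18.9% ± 5.04 in the spleen and 22.02% ± 9.01 and 25.0% ± 10.4 in the LG, where other genes had 26.9% ± 6.33 and 26.7% ± 6.59. IGHV1-26 IgA was less often unmutated than that of other genes in 21 of 24 spleens. These values by isotype are descriptions.

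The positions of the mismatches are numbered from 1 at the first base of the V segment, with the germline base first. In spleen IgM the 4 most frequent in IGHV1-26 were A276G (3.55% of sequences), C250A (2.97%), G244C (2.39%) and G222A (1.79%), and each carries the base that IGHV1-53 has at that position. In IGHV1-53 the most frequent was T285C (10.02%), followed by A30G (5.41%), A25G (5.00%) and G276A (3.03%), of which A25G alone is not the base of IGHV1-26. The 36 differing positions gave 29.8% and 30.1% of all spleen IgM mismatches of IGHV1-26 and IGHV1-53 as a change to the base of the other gene, against 14.8% and 21.03% in spleen IgA.

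Over bases 31 to 240 alone the pair kept its order in IgM. In this stretch 82.6% ± 8.31 of IGHV1-26 and 75.1% ± 7.29 of IGHV1-53 spleen IgM sequences were unmutated, with IGHV1-26 higher in 22 of 24 mice. In spleen IgA it was higher in 8 of 24 and in LG IgA in 9 of 24. The stretch leaves out T285C, the most frequent mismatch of IGHV1-53 spleen IgM. It was read in the pair only, so whether the differences from other IGHV genes hold within it was not tested. How much of the mismatches arose in the cells and how much in library preparation was not tested.

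**Figure D5:**
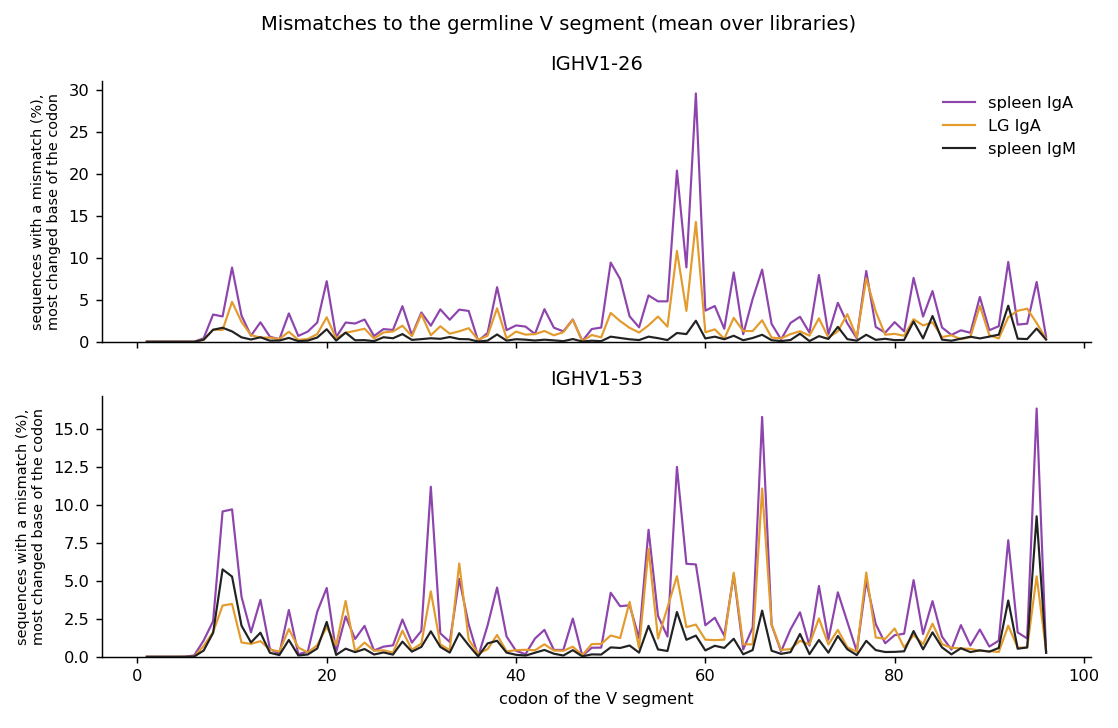
Mean share of sequences in percent with a mismatch at the most changed base of each V codon, over the libraries with at least 20 sequences, for IGHV1-26 (top) and IGHV1-53 (bottom) in spleen IgA (purple), LG IgA (orange) and spleen IgM (black). The IgA lines of IGHV1-26 peak at codons 57 and 59, those of IGHV1-53 are high at codon 66, and its spleen IgA line also at codon 95, and the IgM line of IGHV1-53 peaks at codon 95.

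In spleen IgA the most frequent mismatches of IGHV1-26, pooled over libraries, lay in or near the second complementarity-determining region, G170A (14.96%), G176A (14.4%) and G176C (13.5%), in codons 57 and 59, and all 3 change the amino acid. In the median library they stood at 9.85%, 12.7% and 11.97%, so that G170A was the lowest of the 3. Those of IGHV1-53 were the silent T285C (17.9%) and A30G (10.9%), followed by the replacements G197A (10.1%) and G92A (9.62%), the latter with 43.2% of its sequences from BCR control mouse 1. Their median libraries had 14.3%, 8.59%, 8.69% and 5.33%. In LG IgA the pooled order was set by 1 library. PBS-T mouse 5 gave 72.5% of the sequences with G170T, the most frequent in IGHV1-26 (10.4%), and 85.8% of those with G197C, the most frequent in IGHV1-53 (11.6%). The median library had 2.49% and 0.499% of these.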

How the data were processed

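Heavy-chain repertoires from the LG and spleen were analysed in 10 mice of the NOD-FMT group, 9 of the PBS-T group and 5 BCR controls. The authors reverse-transcribed RNA with CH1 primers carrying a UMI, amplified with V primers, and processed the reads with PEAR v0.9.10, a Phred filter (20 or higher in 95% of bases), Clustal Omega v1.2.4 without singleton clusters, and IgBLAST v1.17.1. The germline release is not given in the sources used here. Each unique sequence was deposited with its raw count of consensus sequences, V and J calls, HCDR3, isotype and the number of V mismatches.

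Sequences in 3 or more mice of a tissue were removed. An LG library kept 40105 to 264365 counts, a spleen library 71859 to 2032338. Wilson intervals (95%) and limits of a 0 (3 counts) cover counting error only. The mouse was the unit. Differences of group means were tested two-sided by exact permutation over all divisions of the mice, and differences within mice by sign-flip permutation (100000 resamples, smallest p 1e-05), each for every IGHV gene found in at least 50% of the libraries concerned, with Benjamini-Hochberg adjustment over these genes and a threshold of 0.05. The spleen tests of IGHJ gene, HCDR3 length, isotype and V mutation also needed a value of the gene in every library compared. This left 98 genes within mice and 99 between NOD-FMT and PBS-T mice. The tests were tested on simulated data. Germline sequences and positions are those of GRCm38 in the GENCODE transcripts and annotation, placed on 99.7% of IGHV1-26 and 99.6% of IGHV1-53 sequences. The software was NumPy 2.4.6, pandas 2.3.3, SciPy 1.17.1 and Matplotlib 3.10.9 under Python 3.11.15.

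Besides IGHV1-26 and IGHV1-53, the text names the genes next to them in order, the 3 most alike over the spleens, the 3 clonotypes per gene and tissue held by most mice and the LG clonotype with the highest share of a mouse. The leading LG clonotypes of single mice and HCDR3s with asparagine and tryptophan at residues 3 and 4 were chosen after their values were seen. The tests of LG count shares against the BCR control group, and those of IgD, were not among the planned tests. The genes and lists were chosen with earlier results of these data known. Alternatives were other removals of shared sequences, a minimum of 2 counts, HCDR3 nucleotides, unmutated or IgM sequences alone, weighting by count, ranks, no filter on genes, thinning, merged LG libraries apart, a replicate block and each mouse left out. Peripheral blood libraries were not analysed here.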

Additional observations from a re-analysis of the deposited data

Results flagged for a closer look

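In 60 groups of 5 to 10 mice, the highest or the lowest mouse was set against the rest of its group for the share of clonotypes and of counts, HCDR3 length, unmutated share and class-switched share of both genes. In all, 9 values stood apart, where chance flags about 1 in 20 groups.

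In the LG, the IGHV1-26 share of clonotypes of BCR control mouse 3, 8.54%, stood above the other 4 at 7.29 to 7.55%. The IGHV1-53 share of counts stood out in PBS-T mouse 6, 33.2% against at most 9.52% in the others, and in BCR control mouse 5, 4.94% against 19.7 to 24.8%. The mean IGHV1-53 HCDR3 length of PBS-T mouse 6 was 9.47 residues, against 10.97 to 12.2. The IGHV1-53 switched share of PBS-T mouse 9 was 20.4%, against 63.3 to 99.5%, in a library with 20.1% IgA overall.

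In the spleen, NOD-FMT mouse 2 had the shortest HCDR3s of its group for both genes, 10.99 residues for IGHV1-26 against 11.5 to 11.7, and 10.8 for IGHV1-53 against 11.2 to 11.4. The other IGHV genes of that spleen were also the shortest of the group, 11.03 residues against 11.5 to 11.7. BCR control mouse 2 had 11.1 residues for IGHV1-26, against 11.5 to 11.7, and 11.1 over the other genes, against 11.5 to 11.7. The IGHV1-26 switched share of NOD-FMT mouse 7 was 22.3%, against 7.21 to 14.004%, in a spleen where the other genes were also the most switched of the group, 20.8% against 9.53 to 16.4%.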

How the results depend on the processing

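Of 44 results, 253 of 296 values under other settings and 826 of 872 with a mouse left out kept their direction and their side of the threshold, and none of them gave a NOD-FMT against PBS-T call. Causes of the changes below were not tested unless the setting itself removes data. Differences are in percentage points, or residues for HCDR3 length.

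Without removal of shared sequences, NOD-FMT minus PBS-T was -0.0230 for the IGHV1-26 spleen clonotype share and 0.0306 and 0.0249 for the spleen count shares of IGHV1-26 and IGHV1-53. The IGHV1-26 difference from other genes was then -0.312 for IGHJ1 and -0.0220 for length, both past the threshold. Removing sequences in 2 or more mice gave 0.0225 for that length, past the threshold, and -0.768 for the IGHV1-26 LG count share, PBS-T minus BCR control. Keeping shared sequences in the mouse with the highest count gave 0.0422 and 0.00199 for the 2 spleen count shares.

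With clonotypes of at least 2 counts the IGHV1-26 spleen clonotype share differed by -0.160 between NOD-FMT and PBS-T, and the IGHV1-53 length by -0.131. LG minus spleen was -0.203 and -1.08. IGHV1-26 against other genes was 0.535 for IGHJ1, -0.253 for IGHJ3, 0.112 for length (past the threshold), -3.81 for unmutated and 4.87 for switched sequences, and IGHV1-53 -0.219 for unmutated and -5.98 for switched. For IgD the differences fell in size to 1.13 and -0.461. Weighting sequences by count gave -2.21 and -3.21 for unmutated and 2.66 and -2.53 for switched sequences, none past the threshold. With unmutated sequences alone, NOD-FMT minus PBS-T was 0.749 for the IGHV1-26 spleen count share and 0.257 and -0.340 for the LG clonotype shares, and LG minus spleen for IGHV1-53 was 0.854, no longer past the threshold.

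Mean ranks differed by 0.211 for the IGHV1-53 LG count share. In merged LG libraries NOD-FMT minus PBS-T was 1.03 for the clonotype and 4.25 for the count share of IGHV1-26, and in the others -1.06 for the IGHV1-53 clonotype share. LG minus spleen for IGHV1-53 was 0.857 in merged and 1.39 in other libraries, neither past the threshold. For IGHV1-26 it was -2.81 in merged libraries, past the threshold, and -0.365 in the others, not past it. Thinning gave -0.108 for the IGHV1-26 spleen clonotype share, NOD-FMT minus PBS-T, and -1.14 and 0.602 for LG minus spleen. Added after seeing the data, joining LG HCDR3s that differ at 1 residue gave -0.211 for IGHV1-53, NOD-FMT minus PBS-T, -2.75 for IGHV1-26, NOD-FMT minus BCR control (exact permutation test, adjusted p = 0.0102), and 0.516 for IGHV1-53, LG minus spleen, not past the threshold. Leaving out BCR control mice 2 and 3 gave 0.441 for the IGHV1-53 spleen share, NOD-FMT minus BCR control.

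With 1 mouse left out, IGHV1-26 gave -0.118 to 0.171 for spleen clonotypes, -0.644 to 0.261 for spleen counts, -0.0497 to 0.0338 for length and -0.731 to 1.02 for switched sequences, NOD-FMT minus PBS-T. It gave -2.74 to -1.96 for LG clonotypes, NOD-FMT minus BCR control, -0.412 to 1.36 for LG counts, PBS-T minus BCR control, and -0.345 to -0.233 for IGHJ1, past the threshold without PBS-T mouse 6, 7, 8 or 9. IGHV1-53 gave -0.210 to 0.457 for LG clonotypes, -2.58 to 1.70 for LG counts, -0.456 to 0.0199 for spleen counts and -0.00980 to 0.0788 for length, NOD-FMT minus PBS-T. Against BCR control it gave -2.34 to -1.60 for LG clonotypes, -15.2 to -10.2 for LG counts and -0.310 to 0.187 for spleen clonotypes in NOD-FMT mice, and -0.0941 to 0.403 for spleen clonotypes in PBS-T mice.

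The replicate numbers did not pair the mice. Deviations of mice with the same number correlated at -0.42 to 0.74 in the spleen, over 0.1 in 5 of 9 pairs, and at -0.26 to 0.21 in the LG, over 0.1 in 2 of 9. The mouse most alike was the one of the same number in 1 of 9 pairs in the spleen and 0 in the LG. With the number as a replicate block, the IGHV1-26 spleen clonotype share differed by -0.106, with its sign turned, and no call changed. Calls that name more than 1 V gene were to be left out, and no sequence had one.

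LG shares rest on as few as 16 clonotypes of a gene in a library, which limits the precision of a single LG value.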
